A study of Mus musculus with 6 samples.

Results

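The miR-183/96/182 cluster is a group of 3 microRNA (miRNA) genes, mir-183, mir-96 and mir-182, on mouse chromosome 6. They were taken by name from a small-RNA sequencing table of 898 miRNA genes, and all 3 were above 0 in both groups. The cluster was chosen by its level, since mir-182 had the highest mean of all miRNAs in embryonic stem cells (ESCs), so its levels, shares and differences between the groups are given here as a description, with no test. The 3 ESC samples were E14Tg2a cells, a mouse ESC line, kept in leukemia inhibitory factor (LIF), a cytokine that maintains self-renewal. The 3 neuronal cell (NC) samples were the same line after LIF was withdrawn and retinoic acid (RA) added at 1 µM, for 48 hours. Both groups were at passage 37 to 40. All samples came from 1 line, and no group without LIF and without RA was analysed here, so the loss of LIF and the addition of RA cannot be told apart.

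A miRNA is cut from a hairpin RNA to a short mature strand that guides the silencing complex to messenger RNAs, mainly by pairing of its seed (bases 2 to 8). The miR-183 cluster is best known from sensory organs. Its members are abundant in photoreceptors, inner ear hair cells and sensory neurons, and changes in the seed of miR-96 cause hearing loss. The 3 hairpins are thought to be cut from a common primary transcript.

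The 3 hairpins lay within 3820 bases on the minus strand of chromosome 6 (RefSeq, build GRCm38), so mir-183 comes first in the direction of transcription. The hairpin of mir-183 spanned chr6:30169668-30169737, that of mir-96 chr6:30169446-30169551 and that of mir-182 chr6:30165918-30165992. Between mir-183 and mir-96 lay 116 bases, and between mir-96 and mir-182 there were 3453. No other gene of GENCODE M21 overlapped the cluster. The nearest genes were Rncr4, a long non-coding RNA on the plus strand that starts 3155 bases beyond mir-183, and the protein-coding gene Nrf1, on the plus strand, which ends 12459 bases from mir-182 on its other side. The hairpins are shown because the table gives 1 value for a whole gene, with both arms pooled. The mature 5p arm is in capitals.
mir-183: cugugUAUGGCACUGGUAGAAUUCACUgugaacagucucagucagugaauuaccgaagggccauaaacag
mir-96: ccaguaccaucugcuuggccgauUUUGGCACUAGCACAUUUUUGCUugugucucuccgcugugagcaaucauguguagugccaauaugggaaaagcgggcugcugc
mir-182: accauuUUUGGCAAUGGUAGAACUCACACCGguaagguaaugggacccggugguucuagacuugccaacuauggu

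The mature 5p arms show how alike the members are at the seed, which is in capitals. The 5p arm of miR-1271, on chromosome 13, is added because it has the seed of miR-96.
miR-183-5p: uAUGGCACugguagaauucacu
miR-96-5p: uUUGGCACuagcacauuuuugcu
miR-182-5p: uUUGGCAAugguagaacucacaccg
miR-1271-5p: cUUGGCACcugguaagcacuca

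Counted from 1 at the 5′ end, the first 8 bases of miR-182-5p and miR-96-5p differed by A8C only, and those of miR-96-5p and miR-183-5p by U2A only. Between miR-182-5p and miR-183-5p the differences in this stretch were U2A and A8C. Among 1738 mature mouse miRNAs in the RefSeq table, bases 2 to 7 of miR-96-5p and miR-182-5p (UUGGCA) were found in 1 more, miR-1271-5p, which was not analysed here. Bases 2 to 7 of miR-183-5p (AUGGCA) were found in no other miRNA of that table. Outside the seed, miR-183-5p and miR-182-5p were the most alike of the 3 pairs, with the same base at 13 of 15 positions (18 of 22 over the whole arms). The longest run that any pair of the 3 shared was 8 bases (UGGUAGAA, in miR-183-5p and miR-182-5p). With any other mature miRNA the longest was 10 bases, between miR-183-5p and miR-470-5p. How the authors assigned reads that match several genes was not given in the sources used here.

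Values were normalized counts, that is, reads of a miRNA gene scaled by the size factor of its library and averaged over the 3 libraries of a group. Counts of different miRNAs were compared without correction for length, since the 5p arms were 22, 23 and 25 bases long. Whether different miRNAs are captured and sequenced equally well was not tested, so comparisons between miRNAs are of counts and not of molecules. The labels were checked against miRNAs known to mark the states. Of the ESC miRNAs of the miR-290 to miR-295 and miR-302 clusters, the 10 that reached a mean of 10 were all lower in NCs, by -4.31 to -1.50 in log2. Of 6 Hox-cluster miRNAs, mir-10a, mir-10b, mir-615 and mir-196b were higher in NCs, by 1.73 to 8.46 in log2, while mir-196a-1 and mir-196a-2 had lower means, by -0.52 and -0.48, with libraries that overlapped. The neural miRNA mir-9 was present in both groups, at 358 to 499 normalized counts in the ESC libraries and 667 to 949 in the NC libraries of mir-9-1, and its other gene copies had nearly the same values. The neuronal miRNA mir-124 was near 0, with means of 2.09 to 2.70 in ESCs and 5.19 to 6.02 in NCs over its 3 genes, so this defining marker of neurons was almost absent from the NCs.

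mir-182 had the highest mean of all miRNAs in ESCs, at 400664 normalized counts, and a mean of 207742 in NCs. It ranked first of 549 miRNAs above 0 in ESCs and second of 602 in NCs, behind mir-10a, a Hox-cluster miRNA. In ESCs its mean was 3.13 times that of the next miRNA, mir-541 (128072). The 5 miRNAs that followed mir-182 added up to 381533, less than mir-182 alone, and 6 were needed to exceed it. In NCs, mir-182 was 2.59 times mir-541 (80291), and mir-10a was above it at 754551. The NC mean of mir-182 was 0.518 times its ESC mean, a log2 difference of -0.95.

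mir-183 was the second member by level. Its mean was 45340 normalized counts in ESCs and 26489 in NCs, and it ranked 6 in ESCs and 9 in NCs. Its neighbours in ESCs were mir-191 (47188) and mir-291a (34392), and mir-183 was 0.961 times the former and 1.32 times the latter. Without values for single libraries, it cannot be said whether mir-183 and mir-191 differed beyond their spread. The NC mean of mir-183 was 0.584 times its ESC mean, a log2 difference of -0.78.

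mir-96 was by far the lowest of the 3. Its mean was 1365 normalized counts in ESCs and 662 in NCs, a log2 difference of -1.04. It ranked 51 in ESCs, between mir-10b (1375) and mir-290a (1350), and 76 in NCs, between mir-31 (685) and mir-450b (657). The ESC libraries of mir-96, at 1216 to 1520, and of mir-290a, at 1202 to 1580, covered nearly the same range, so their order in ESCs was within the spread. In NCs, the libraries of mir-96 (590 to 742) lay inside the ranges of mir-31 (518 to 961) and mir-450b (149 to 929), and the order of these 3 was within the spread as well.

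**Figure D1:**
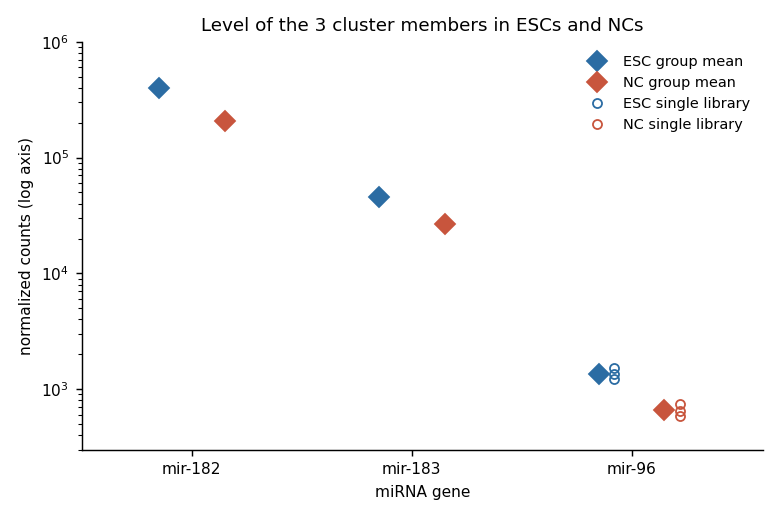
Level of each member in normalized counts (log axis), with diamonds for the group means in ESCs (blue) and NCs (red) and open circles for the single libraries of mir-96. The members lie in the same order in both groups, mir-182 above mir-183 above mir-96, and each NC mean is below its ESC mean.

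The members differed in level by more than 100-fold from the highest to the lowest. mir-182 was 8.84 times mir-183 in ESCs and 7.84 times in NCs. mir-182 was 294 times mir-96 in ESCs and 314 times in NCs, and mir-183 was 33.2 and 40.0 times mir-96. The order of the 3 was the same in both groups, and the ratios between them differed between the groups by -0.17, 0.10 and 0.27 in log2, against -0.78 to -1.04 for the members themselves. Of the summed signal of the cluster, mir-182 made up 89.6% in ESCs and 88.4% in NCs, mir-183 10.1% and 11.3%, and mir-96 0.305% and 0.282%. By seed, bases UUGGCA (mir-182 and mir-96) carried 34.9% of all signal in ESCs and 13.0% in NCs, and mir-182 gave 99.7% of this in both groups.

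**Figure D2:**
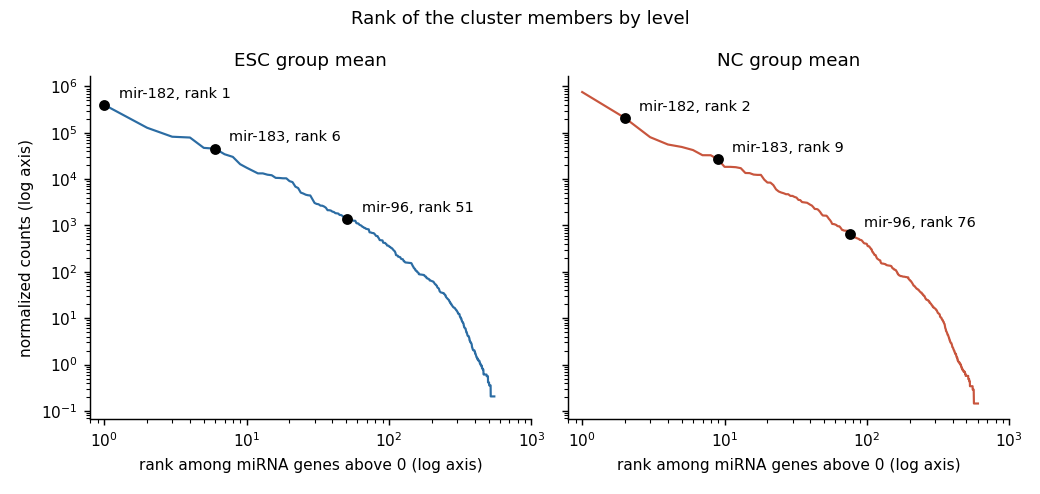
Normalized counts (log axis) of all miRNA genes above 0 against their rank (log axis) in ESCs (left) and NCs (right), with the 3 members as black points. mir-182, mir-183 and mir-96 rank 1, 6 and 51 in ESCs and 2, 9 and 76 in NCs.

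In ESCs, the cluster held 38.8% of the summed signal of all miRNAs, of which mir-182 held 34.8%, mir-183 3.93% and mir-96 0.118%. In NCs, the cluster held 14.7%, with 13.0% for mir-182, 1.65% for mir-183 and 0.0413% for mir-96. These shares depend on mir-10a, which alone held 47.1% of the NC signal and had a mean of 2136 in ESCs. With mir-10a left out of both sums, the cluster held 38.9% in ESCs and 27.7% in NCs. mir-182 then held 34.8% and 24.5%, mir-183 3.94% and 3.12%, and mir-96 0.119% and 0.0780%. Without mir-10a, mir-182 was the highest miRNA in NCs as well.

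**Figure D3:**
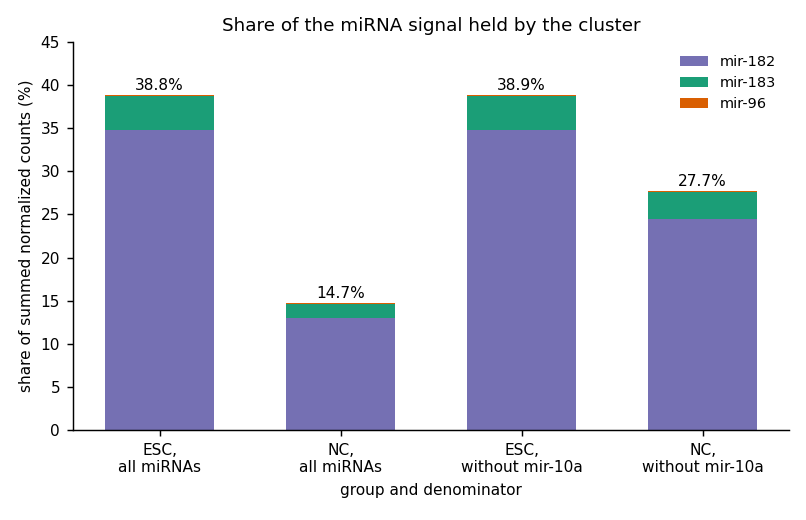
Share of the summed normalized counts (%) held by mir-182, mir-183 and mir-96 in each group, with all miRNAs and without mir-10a in the sum. The cluster holds 38.8% in ESCs and 14.7% in NCs with mir-10a, and 38.9% and 27.7% without it, and the segment of mir-96 is too thin to see.

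The sum of the 3 members was 447369 normalized counts in ESCs and 234893 in NCs, a log2 difference of -0.93. All other miRNAs together, without mir-10a, had a sum of 703288 in ESCs and 613687 in NCs, a difference of -0.20. Relative to these, the cluster stood at 0.636 in ESCs and 0.383 in NCs, a log2 difference of -0.73. The size of the decrease of each member therefore depends on the scaling, and its direction did not change in any of those tried. With both groups scaled to the same total, the log2 differences were -1.42 for mir-182, -1.25 for mir-183 and -1.52 for mir-96. With the same scaling and mir-10a left out, they were -0.51, -0.34 and -0.61. The total RNA of bulk cultures was measured, so fewer cells with the miRNAs and less miRNA in each cell cannot be told apart.

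Of the 344 miRNAs with a mean of at least 10 in a group and above 0 in both, 186 (54.1%) had a lower mean in NCs, and the median log2 difference was -0.07. Lower log2 differences than that of mir-96 were found for 38 of the 344, than that of mir-182 for 46 and than that of mir-183 for 58. Among the 64 miRNAs whose mean over both groups reached 1000, 27 were lower in NCs and the median was 0.15. In this set 9 lay below mir-96, 11 below mir-182 and 14 below mir-183.

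**Figure D4:**
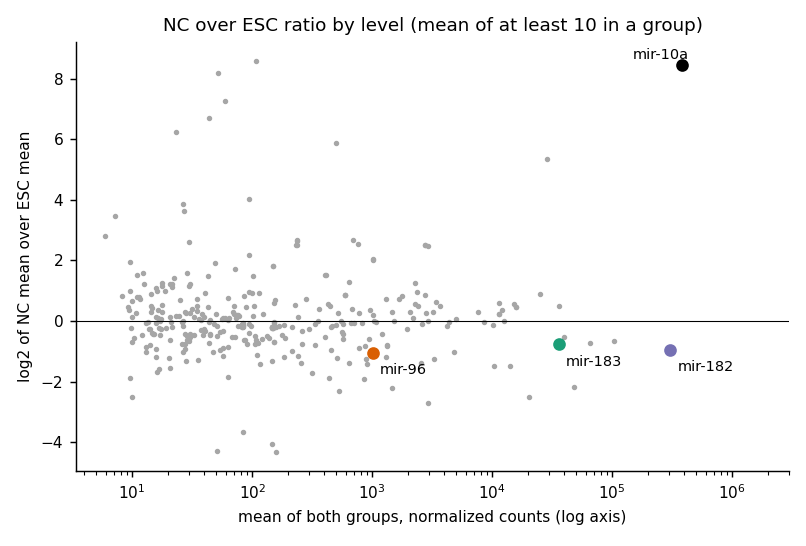
Log2 of the NC mean over the ESC mean against the mean of both groups (normalized counts, log axis) for 344 miRNA genes (grey), with the 3 members in colour and mir-10a in black. The members lie at -0.78 to -1.04 across a wide range of levels, and mir-10a lies at 8.46.

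Single libraries could be read for mir-96 only. The deposited means carry 10 decimals, so the whole reads and the size factors of the 3 libraries behind a mean can be found where 1 set of whole numbers gives that mean. Within a group the libraries are called A, B and C, from the largest size factor to the smallest, and cannot be assigned to the numbered replicates. For mir-96 exactly 1 set of reads was found in each group. For mir-183, 10 sets gave the ESC mean and 5 the NC mean, and for mir-182 the sets were too many to list, so no error could be given for these members. Most pairings of an ESC set with an NC set of mir-183 left the groups overlapping. With NC libraries of 23301, 22384 and 33783 normalized counts, ESC libraries of 54747, 51653 and 29619 overlapped and 65822, 35348 and 34850 did not. Which sets are the true ones is not known.

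mir-96 had 1972, 1274 and 832 reads in ESC libraries A, B and C, which were 1216, 1359 and 1520 normalized counts. In NC libraries A, B and C it had 1711, 638 and 345 reads, or 742, 653 and 590 normalized counts. Every NC library was thus below every ESC library. The same held for 46 of the 322 miRNAs (14.3%) with a mean of at least 10 in a group and with reads found in both groups. Gene copies of a miRNA were counted separately, and copies such as those of mir-467a had nearly the same reads. Since the members were chosen with these values in view, the share of 14.3% is given only as the background. The lowest ESC library of mir-96 was 1.64 times its highest NC library. As mean ± SD, the level was 1365 ± 152 in ESCs and 662 ± 76.3 in NCs (n = 3 each). The libraries of a group varied by 11.2% in ESCs and 11.5% in NCs (coefficient of variation), against 2.25% to 5.38% from counting alone. The median variation of the 264 miRNAs whose mean reached 20 was 28.9% in ESCs and 29.0% in NCs, and 35 and 33 miRNAs varied less than mir-96. That set was not matched to mir-96 for level. It includes miRNAs with far fewer reads, in which counting alone adds more variation.

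The groups of mir-96 also did not overlap when scaled to equal totals with mir-10a (NC 424 to 533) or without it (NC 800 to 1006). All NC libraries were multiplied by the same factor here, and no library was scaled to its own total. As background, 96 of the 322 miRNAs (29.8%) were lower in NCs without overlap at equal totals. Without mir-10a in the totals it was 23 of the 322 (7.14%).

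Library C, with the smallest size factor, stood apart from A and B in both groups. Across 258 miRNAs, the log2 ratio of C to the mean of A and B had an SD of 1.32 in ESCs and 1.18 in NCs, while that of A to B had an SD of 0.347 and 0.252. For mir-96 the ratio of C to A and B was small, 0.24 in ESCs and -0.24 in NCs, and 17.8% and 15.1% of the miRNAs deviated less. With libraries A and B alone, the log2 difference of mir-96 between the groups was -0.88, and with library C alone it was -1.37. For mir-182, the part of library C in the means was not tested. For mir-183, the same ratio in the 10 possible ESC sets ran from -1.19 to 3.06, and the smallest in size was -0.54. Library C thus departed more from A and B in each of these sets than it did for mir-96 in ESCs. The possible NC sets of mir-183 included ratios of -0.12 and 0.01 but also 0.68, so the part of library C in the NC mean is not known.

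**Figure D5:**
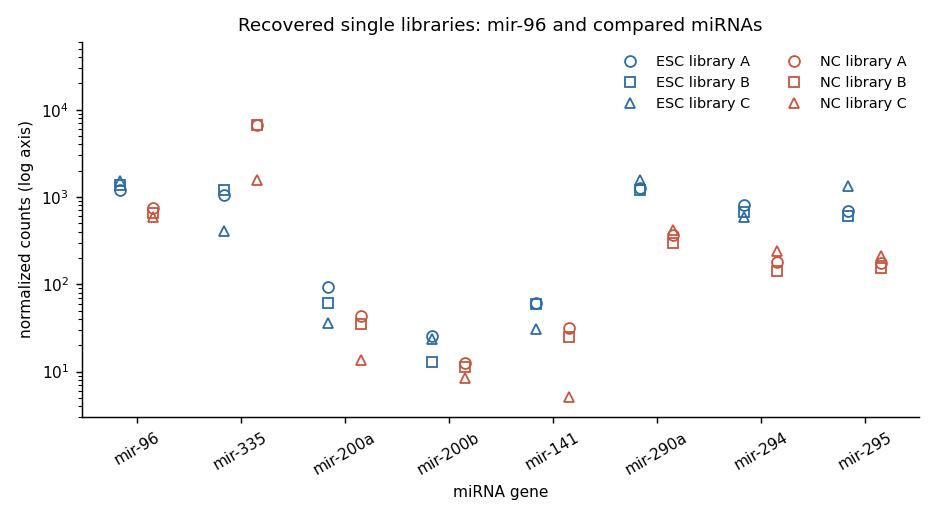
Normalized counts (log axis) in the recovered ESC (blue) and NC (red) libraries A (circle), B (square) and C (triangle) for mir-96 and the miRNAs compared with it. The 3 ESC points of mir-96 lie at 1216 to 1520, above the NC points at 590 to 742, and library C departs little from A and B, unlike in mir-335.

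The pattern of mir-96 over the 6 libraries was most like those of mir-302c (Pearson's r = 0.967), mir-290a (0.960), mir-302a (0.958), mir-302d (0.956) and mir-211 (0.947), among 263 miRNAs, on log2 values with 1 added. Only miRNAs with reads found in both groups could be compared, so mir-182, mir-183, mir-291a, mir-292 and mir-293 were left out. These r values are a description over 6 libraries that fall into the 2 groups. The sizes of the differences were unlike that of mir-96. mir-290a was 3.74-fold lower in NCs, and mir-302c, mir-302a, mir-302d and mir-211 were 19.4-fold, 19.9-fold, 12.7-fold and 16.8-fold lower, against 2.06-fold for mir-96.

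Within 1 Mb of mir-182 on chromosome 6, the table held 3 more miRNAs. mir-335, an intronic miRNA of the imprinted gene Mest, lay 575 kb away and went the other way, from 883 to 4958 normalized counts. Its ESC libraries held 1046, 1194 and 411 normalized counts and its NC libraries 6728, 6588 and 1556, so library C was low in both groups but the groups did not overlap (17.4% of the 322 miRNAs were higher in NCs without overlap). mir-29a and mir-29b-1, 897 kb away, were near absent, with at most 4 reads in any library.

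The miR-200 family and mir-203 are epithelial miRNAs that in other tissues are often expressed along with the miR-183 cluster. Of these 6 genes, mir-200a, mir-200b and mir-141 had a mean of at least 10, and all 3 had lower means in NCs, with a median log2 difference of -1.04 (-1.29 to -0.93), against -0.07 over all miRNAs of that level. Their levels were far below those of the cluster. mir-200a had 92.5, 60.8 and 36.5 normalized counts in the ESC libraries and 43.8, 34.8 and 13.7 in the NC libraries. mir-141 had 60.4, 58.7 and 31.1 in ESCs and 31.6, 24.6 and 5.13 in NCs. In both of these the highest NC library, A, overlapped the lowest ESC library, C. mir-200b had 25.3, 12.8 and 23.7 in ESCs and 12.6, 11.3 and 8.55 in NCs, where the groups were only just apart, by 1.02-fold. mir-200c, mir-429 and mir-203 had at most 4 reads in any library.

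The miR-290 to miR-295 cluster, the best known miRNA cluster of mouse ESCs, held 11.9% of the ESC signal and 1.96% of the NC signal, less than the miR-183/96/182 cluster in both groups. The 7 of its genes that reached a mean of 10 were all lower in NCs, with a median log2 difference of -1.90 (-2.52 to -1.50). The 3 members of the miR-183/96/182 cluster, at -0.78 to -1.04, all lay outside that range on the side of smaller decreases. No test of this difference was made, since mir-182 and mir-183 have no values for single libraries. In mir-290a, which had an ESC level close to that of mir-96, the NC libraries held 369, 297 and 416 normalized counts, all below the NC libraries of mir-96.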

How the data were processed

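Small-RNA libraries of 3 ESC and 3 NC samples were grouped by their titles. Per the file headers and labels, the authors deposited 1 table whose signal columns give, for ESCs and NCs, the mean count after each library was scaled by its size factor. The processing notes of the submitters name DESeq and build mm10, and the authors' adapter removal, aligner and counting rules are not given in the sources used here. The table's fold changes, p-values and adjusted p-values, as deposited, were the authors' own comparison and were not used.

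Whole reads were recovered by enumeration (numba 0.67.0, numpy 2.4.6), with each size factor fixed as the ratio of 1 miRNA to its geometric mean. In ESCs this gave reads for 536 of the 549 detected miRNAs (19.6% of the signal) and size factors of 1.62, 0.937 and 0.547. In NCs it gave reads for 582 of 602 (10.4%) and size factors of 2.31, 0.977 and 0.585. Total library depth is unknown, since the most abundant miRNAs were not resolved. On simulated means, 1077 of 1112 values were resolved and all 1077 were right. The simulation was built so that each size factor was the ratio of 1 miRNA, as the recovery assumes, so it did not test that assumption. Counting error is Poisson and leaves out amplification. The paper describes its mRNA replicates as biologically independent, with the RNA of each set processed separately. For the small-RNA libraries the paper states neither, and the other sources used here do not say that they were independent.

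Log2 differences of group means used no pseudocount. The members and lists were chosen with earlier results of these data known. The miRNAs named besides the members were those that share bases 2 to 7, the top 5 and the neighbours in rank, those within 1 Mb, the 5 most correlated with mir-96, and the epithelial and ESC lists. For the check of the labels, mir-291b, mir-196a, mir-9 and mir-124 were added after their values were seen. Positions and sequences are from RefSeq (GRCm38.p6) and GENCODE M21, and 890 of 898 genes matched a RefSeq miRNA gene. Alternatives were other scalings, denominators, a pseudocount and leaving out libraries. Python 3.11.15, pandas 2.3.3, scipy 1.17.1 and matplotlib 3.10.9 were used.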

Additional observations from a re-analysis of the deposited data

How the results depend on the processing

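None of the log2 differences of the 3 members changed sign in any alternative. Centred on the median of all miRNAs with a mean of at least 10, they were -0.88 for mir-182, -0.71 for mir-183 and -0.98 for mir-96. At equal totals they were -1.42, -1.25 and -1.52, and at equal totals without mir-10a they were -0.51, -0.34 and -0.61. A pseudocount of 1 left all 3 as they were to 2 decimals. Leaving out each library in turn gave -1.13 to -0.96 for mir-96. Chosen after the data were seen, libraries A and B alone gave -0.88 and library C alone -1.37. Leaving out libraries was not possible for mir-182 and mir-183, whose reads were not resolved. No paired analysis was possible because libraries A, B and C could not be matched to numbered replicates.

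The share of mir-182 was 35.7% in ESCs and 13.3% in NCs with gene copies of a miRNA counted once, 34.8% and 24.5% without mir-10a, and 56.8% and 15.2% relative to the signal of all miRNAs outside the cluster. The share of the whole cluster was 39.9% and 15.1% with copies counted once, and 38.9% and 27.7% without mir-10a. The share of miRNAs with all NC libraries below all ESC libraries was 9.00% with no filter on low values, 29.8% at equal totals and 7.14% at equal totals without mir-10a.

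Depth limits mir-96 most in NC library C, with 345 reads. The values of mir-182 and mir-183 rest on group means alone, and no single spread between replicates can be set beside their differences. For mir-183, most pairings of the possible sets of reads left the groups overlapping.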
